A study of Homo sapiens with 4 samples.

Results

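AZGP1, APOD, PIP, SERPINA3, CLCA2, TARP, KCNU1, CYP2B7P and TMPRSS2 are 9 of the 18882 genes that had reads in any of 4 RNA-sequencing libraries of BT-474, an established breast cancer cell line. They are gathered here as genes linked to androgen response or to the apocrine secretory state of breast cells, and their rows were found by NCBI Gene ID. Several were picked because their RNA levels differed strongly, in opposite directions, between the 2 groups of these same libraries, so their group values are given as a description, with no test. The study asked how the transcriptome differs when Neuropilin-1 (NRP-1), a transmembrane co-receptor, is overexpressed in cells that make little of it. Control libraries (replicates 1 and 2) came from wild-type BT-474 with no plasmid, and BT-474 NRP-1 libraries (replicates 2 and 3) from BT-474 stably transfected with an NRP-1 expression plasmid and selected with Geneticin, both grown in RPMI-1640 with fetal bovine serum. Transfected clones were isolated, and the sources do not say whether the NRP-1 libraries are separate clones or cultures. No empty-plasmid library is among these 4, so in them NRP-1, plasmid, selection and clone cannot be told apart. P-values therefore measure only the spread between these libraries, which may be technical.

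Steroid hormones act on transcription together with pioneer factors such as FOXA1, which open chromatin, and androgens in this way set much of the secretory output of prostate and apocrine breast epithelium. Apocrine breast epithelium is known for a characteristic secretion that contains the products of PIP, AZGP1 and APOD, which are long-used markers of breast cyst fluid. TMPRSS2 is a classic androgen-induced gene of prostate epithelium, and TARP is a transcript of the T cell receptor gamma locus known from androgen-responsive prostate and breast cancer cells.

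The proximal promoters of CLCA2, AZGP1, PIP and SERPINA3 are shown because only these 4 of the 9 genes had a promoter window available. CLCA2 was higher in BT-474 NRP-1 cells, and AZGP1, PIP and SERPINA3 were lower, as described below. Each line gives the 250 bases before the gene's start, 5′ to 3′ on the gene's own strand, from RefSeq (GRCh38.p14). Capitals mark AGAACA or its reverse complement TGTTCT, the core hexamer of the element of androgen and glucocorticoid response.
CLCA2, chr1:86423921-86424170, strand +: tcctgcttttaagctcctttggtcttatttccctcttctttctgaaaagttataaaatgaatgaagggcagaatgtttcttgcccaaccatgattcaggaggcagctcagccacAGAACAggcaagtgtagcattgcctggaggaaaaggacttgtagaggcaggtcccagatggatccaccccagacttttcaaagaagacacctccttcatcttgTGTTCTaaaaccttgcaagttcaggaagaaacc
AZGP1, chr7:99976032-99976281, strand -: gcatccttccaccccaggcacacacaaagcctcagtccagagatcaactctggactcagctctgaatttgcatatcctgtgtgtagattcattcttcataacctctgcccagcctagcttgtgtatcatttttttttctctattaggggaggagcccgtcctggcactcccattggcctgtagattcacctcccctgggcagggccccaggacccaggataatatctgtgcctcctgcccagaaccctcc
PIP, chr7:143131827-143132076, strand +: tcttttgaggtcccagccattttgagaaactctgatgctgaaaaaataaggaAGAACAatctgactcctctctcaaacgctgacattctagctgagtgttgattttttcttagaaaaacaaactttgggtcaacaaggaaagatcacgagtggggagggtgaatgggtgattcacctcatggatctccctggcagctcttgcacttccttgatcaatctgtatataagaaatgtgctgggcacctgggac
SERPINA3, chr14:94612141-94612390, strand +: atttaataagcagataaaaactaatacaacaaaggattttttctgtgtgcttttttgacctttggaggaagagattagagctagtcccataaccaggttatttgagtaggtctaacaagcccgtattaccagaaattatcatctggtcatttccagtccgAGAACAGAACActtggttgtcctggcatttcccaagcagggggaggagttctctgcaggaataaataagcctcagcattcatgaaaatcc

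The hexamer was present in 3 of these 4 windows, against 12.4% of 35116 promoter windows of the same length. In CLCA2 it began 136 and 33 bases upstream of the start, once on each strand. In PIP it lay 198 bases upstream, and in SERPINA3 it occurred as an overlapping pair beginning 90 and 85 bases upstream. The AZGP1 window did not hold these letters. The hexamer was thus found in a promoter of the gene that was higher and in promoters of genes that were lower. None of the 4 windows held the full palindrome, AGAACA followed by 3 bases of any kind and TGTTCT (0.00285% of all windows), its looser form, GNACA followed by 3 bases of any kind and TGTNC (0.327%), or the forkhead letters TGTTTAC (2.98%) and TGTTTGC (3.23%), each searched on both strands. A match of letters is a description and not a binding site, and receptor binding was not measured.

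The libraries held 8243595 to 8448926 expected counts (estimated reads per gene), and levels are given as reads, as CPM (reads scaled to equal TMM-adjusted library size) or, between genes, as FPKM, which also corrects for length. As a check of the labels, NRP1 gave 7 and 8 reads in control and 103 and 62 in NRP-1 replicates (log2 fold change 3.38, standard error 0.42, adjusted p = 0.044 over the 14298 genes that edgeR's quasi-likelihood fit tested, by Benjamini-Hochberg, n = 2 per group), and reads from the plasmid and from the cell's own gene are not separated. Spread between replicates, as edgeR's biological coefficient of variation, was 0.225 for BT-474 NRP-1 and 0.064 for control cells. All 6 luminal epithelial markers had reads in every library, with a summed level of 10672 to 10920 CPM in control and 10913 to 12891 CPM in NRP-1 libraries. ERBB2 gave the largest part, at 5697 and 6137 CPM in control and 6949 and 5535 CPM in NRP-1 libraries. EPCAM had a log2 fold change of -0.31 and GATA3 of 1.34 (edgeR adjusted p = 0.188 and 0.126), and the others lay from 0.08 to 0.27. Basal markers summed to 2.22 and 5.60 CPM in control and 5.17 and 9.75 CPM in NRP-1 libraries (KRT14 at 0), and hepatocyte markers to 0.986 and 1.22 against 0.235 and 0.587 CPM. Prostate epithelial markers summed to 64.2 and 72.8 CPM in control and 88.0 and 67.9 CPM in NRP-1 libraries, with KLK3 at 0. Most of this came from HOXB13 (442 and 507 against 597 and 504 reads) and the rest from ACP3 (79 and 91 against 151 and 74). The endothelial sum was higher in NRP-1 libraries, at 13.4 and 11.6 CPM against 5.67 and 9.0 CPM, mostly through VWF (9 and 20 reads against 47 and 49, edgeR adjusted p = 0.0998). The fibroblast sum was 214 and 212 CPM in control and 178 and 159 CPM in NRP-1 libraries, nearly all from COL1A1 (log2 fold change -0.34, edgeR adjusted p = 0.177), with DCN at 0. The myeloid sum was 110 and 97.5 CPM against 74.3 and 76.1 CPM, with CD14 at 0. Within it CD68, a lysosomal protein, fell from 320 and 281 to 107 and 89 reads (log2 fold change -1.67, standard error 0.19, edgeR adjusted p = 0.0423), while LYZ had 575 and 520 against 522 and 558 reads (-0.08, edgeR adjusted p = 0.762). The part of these in the results was not tested. In bulk RNA, fewer cells of a type and less RNA per cell cannot be told apart.

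Among the secreted products, RNA of AZGP1, SERPINA3 and APOD was lower in both BT-474 NRP-1 libraries than in both control libraries, and PIP was lower mainly in one of them. AZGP1 encodes zinc-alpha2-glycoprotein, a soluble protein with a fold like that of MHC class I heavy chains. It had 9038 and 7902 reads in control replicates 1 and 2 and 2037 and 2188 reads in NRP-1 replicates 2 and 3. The groups did not overlap, and the libraries of each group lay close together. The mean was 1037 ± 107 CPM in control and 248 ± 12.3 CPM in BT-474 NRP-1 cells (SD, n = 2), a log2 fold change of -2.06 (standard error 0.14), or 4.18-fold lower. AZGP1 was the most abundant of the 9 genes per length in every library, at 867.84 and 753.21 FPKM in control and 192.39 and 205.22 FPKM in NRP-1 libraries. By FPKM it ranked 69th and 75th among all genes in control and 300th and 282nd in NRP-1 replicates.

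SERPINA3 encodes alpha-1-antichymotrypsin, a secreted inhibitor of serine proteases. Control replicates gave 1228 and 1201 reads, and NRP-1 replicates 77 and 55. The control values were nearly equal, and both NRP-1 values were far below them. The mean level was 149 ± 3.64 CPM against 7.76 ± 1.84 CPM (SD, n = 2), a log2 fold change of -4.26 (standard error 0.19), or 19.1-fold lower. In FPKM it went from 91.93 and 89.25 to 5.67 and 4.02.

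PIP encodes prolactin-induced protein, the gross cystic disease fluid protein used as an apocrine marker in pathology. Its reads were 389 and 335 in control and 240 and 35 in NRP-1 libraries. Both NRP-1 libraries lay below both controls, but NRP-1 replicate 2 was nearer to the controls than to NRP-1 replicate 3. The means were 44.3 ± 5.06 CPM and 16.2 ± 17.0 CPM (SD, n = 2), so the spread within BT-474 NRP-1 cells was as large as the mean itself. The log2 fold change was -1.45 with a standard error of 0.72. Omitting NRP-1 replicate 2 made it -3.44 and omitting replicate 3 made it -0.65, so the size of the difference rested on which NRP-1 library was used.

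APOD encodes apolipoprotein D, a lipocalin that carries small hydrophobic ligands and is abundant in breast cyst fluid. It was scarce here, with 36 and 18 reads in control libraries and 2 and 0 reads in NRP-1 libraries. The groups did not overlap, and a count of 0 allows up to 3 reads in that library. The control values also differed from each other, with a ratio of replicate 2 over 1 of 0.494 (95% exact interval 0.264 to 0.893, counting error only). With 3 reads per library set in place of the NRP-1 reads, APOD was 9.4-fold lower in BT-474 NRP-1 cells. This value was 6.2-fold to 12.6-fold with each library left out in turn. It takes no account of counting error in the reads of either group.

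**Figure D1:**
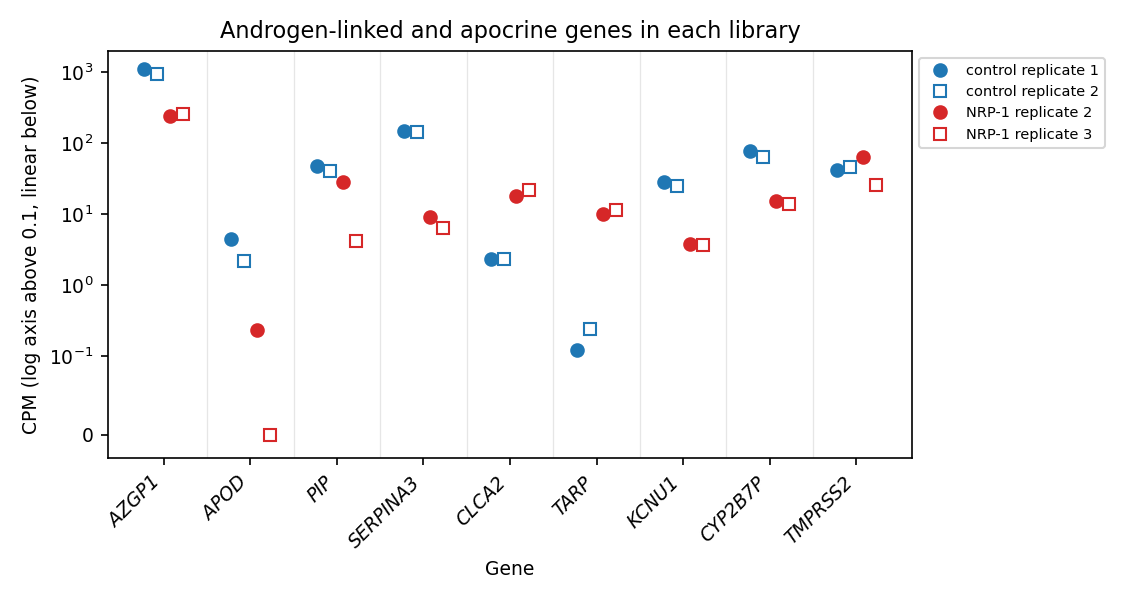
Level of each of the 9 genes in each library, in CPM on a log axis (linear below 0.1), with control libraries in blue and NRP-1 libraries in red, 1 point per library. AZGP1, SERPINA3, KCNU1 and CYP2B7P are lower, and CLCA2 and TARP higher, in both NRP-1 libraries, while PIP and TMPRSS2 are spread widely between the NRP-1 libraries.

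Of the genes whose products sit in the membrane, CLCA2 was higher, KCNU1 lower and TMPRSS2 inconsistent in BT-474 NRP-1 cells. CLCA2 encodes a regulator of calcium-activated chloride currents known from breast and skin epithelium. It had 19 reads in each control library and 152 and 184 reads in NRP-1 libraries, with no overlap between the groups. The means were 2.33 ± 0.0203 CPM and 19.7 ± 2.64 CPM (SD, n = 2), a log2 fold change of 3.08 (standard error 0.25), or 8.44-fold higher. Per length it was at 4.45 and 5.35 FPKM in the NRP-1 libraries against 0.57 and 0.56 FPKM in control.

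KCNU1 encodes a pH-sensitive potassium channel best known from sperm. Its reads were 234 and 205 in control and 32 and 31 in NRP-1 libraries. The groups did not overlap, and the NRP-1 libraries gave almost the same value. The means were 26.9 ± 2.75 CPM and 3.70 ± 0.0867 CPM (SD, n = 2), a log2 fold change of -2.86 (standard error 0.22), or 7.24-fold lower. In RefSeq, KCNU1 overlaps a long non-coding RNA and pseudogenes that have no row of their own in the files.

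TMPRSS2 encodes a transmembrane serine protease and is induced by androgen in the prostate. Control replicates gave 340 and 375 reads, and NRP-1 replicates 546 and 221. NRP-1 replicate 2 lay above both controls and NRP-1 replicate 3 below both, so the groups overlapped. The means of 43.8 ± 2.65 CPM and 45.1 ± 27.0 CPM (SD, n = 2) were close, for a log2 fold change of 0.04 (standard error 0.40). Omitting NRP-1 replicate 2 gave -0.76, omitting control replicate 1 gave -0.02, and omitting NRP-1 replicate 3 gave 0.55, so single libraries set its direction.

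TARP and CYP2B7P are both read from loci with close relatives. TARP had 1 and 2 reads in control libraries and 85 and 96 reads in NRP-1 libraries. The control libraries were at the floor of 3 reads, and both NRP-1 libraries were well above it, at 10.06 and 11.28 FPKM. With 3 reads per library set in place of the control reads, TARP was 29-fold higher in BT-474 NRP-1 cells (27.2-fold to 30.7-fold with each library left out in turn). This value takes no account of counting error in the 1 and 2 control reads. TARP overlaps TRGC1 and joining segments of the T cell receptor gamma locus, none of which has a row in the files, so reads of these genes cannot be told apart here. The T cell markers CD3D, CD3E, CD2 and TRAC were at 0 in all libraries, and the 6-gene T cell list summed to 3.41 to 4.07 CPM in control and 2.70 to 4.81 CPM in NRP-1 libraries, from CD3G (14 to 24 reads) and PTPRC (9 to 17 reads).

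CYP2B7P is a transcribed pseudogene of the cytochrome P450 2B family. It had 638 and 530 reads in control and 131 and 120 reads in NRP-1 libraries, again without overlap. The means were 71.5 ± 9.98 CPM and 14.7 ± 0.928 CPM (SD, n = 2), a log2 fold change of -2.28 (standard error 0.17), or 4.85-fold lower. Its coding relative CYP2B6, a drug-metabolising enzyme, was 90.7% identical over the aligned transcripts (2812 of 3101 columns), so the split of reads between them is uncertain. CYP2B6 had 21, 21, 14 and 10 reads in the same order, and CYP2B7P took 96.8% and 96.1% of the pair's reads in control and 90.6% and 92.4% in NRP-1 libraries. With the reads of both summed, the log2 fold change was -2.20. AZGP1 has a similar neighbour, the pseudogene AZGP1P1, 90.2% identical over 814 of 902 columns, with 193 and 258 reads in control and 99 and 118 in NRP-1 libraries (log2 fold change -1.11, standard error 0.22, edgeR adjusted p = 0.0707). AZGP1 held 94.9% to 97.9% of that pair's reads in every library, and the summed pair gave a log2 fold change of -2.03.

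Together the 9 genes made up 0.145% and 0.127% of all reads in control and 0.0393% and 0.0347% in NRP-1 replicates. AZGP1 alone was 61.7% to 75.8% of these reads in each library. In 8 of the 9 genes the groups did not overlap, 2 higher and 6 lower, beside 56.2% of all 14298 tested genes that did not overlap (27.9% higher, 28.3% lower). By edgeR's adjusted p under 0.05, 2 were higher and 4 lower, beside 0.413% and 0.678% of all genes (1.09% in either direction), and nothing is read from these counts, since the genes were chosen on this contrast. At the edge of that choice, TMPRSS2 showed almost no mean difference, and PIP a difference whose size depended on which NRP-1 library was used.

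PIP and TMPRSS2 stood apart from the others in how far NRP-1 replicates lay apart. PIP was 6.87-fold lower in NRP-1 replicate 3 than in replicate 2 (ratio 0.146, 95% exact interval 0.0991 to 0.208), and TMPRSS2 was 2.47-fold lower (ratio 0.404, 0.344 to 0.473). The same ratio was close to 1 for AZGP1 (1.07, 1.01 to 1.14), TARP (1.13, 0.834 to 1.53), KCNU1 (0.967, 0.571 to 1.64) and CYP2B7P (0.915, 0.708 to 1.18), and further from 1 but with intervals that included it for SERPINA3 (0.713, 0.495 to 1.02) and CLCA2 (1.21, 0.97 to 1.51). With 2 and 0 reads, APOD gave no usable ratio (0 to 5.32). Between the control libraries, PIP and TMPRSS2 differed little, with ratios of 0.851 (0.733 to 0.987) and 1.09 (0.938 to 1.27). A difference of at least 2-fold between the NRP-1 libraries was seen in 8.99% of all tested genes, against 2.41% between the control libraries, and in 4.4% against 0.101% of those averaging 100 reads or more. GATA3, a luminal transcription factor, differed between the NRP-1 libraries in the same direction as PIP and TMPRSS2 (ratio 0.419, 0.364 to 0.482). The receptors ESR1 and PGR differed the other way, with 273 and 735 reads and 419 and 1138 reads in NRP-1 replicates 2 and 3. A link between these genes was not tested. The intervals of the ratios cover counting error only and compare single libraries.

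**Figure D2:**
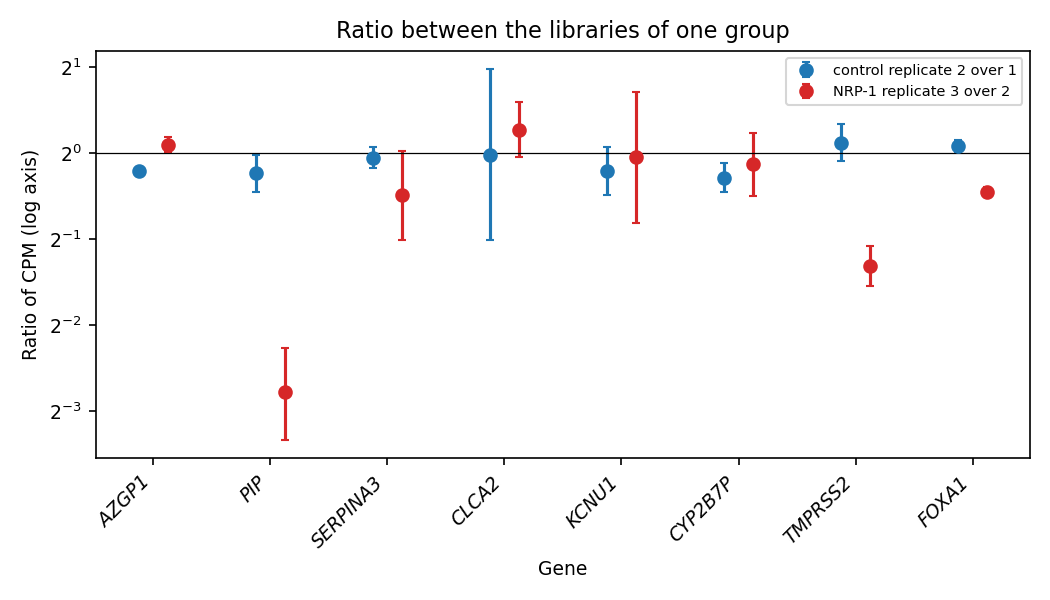
Ratio of CPM between the libraries of each group, on a log axis, for 7 of the 9 genes and for FOXA1, with bars for the 95% exact counting interval. APOD and TARP, at 0 to 2 reads in one group, are left out. PIP and TMPRSS2 fall well below 1 for NRP-1 replicate 3 over 2, while their control ratios lie near 1.

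FOXA1, the pioneer factor, had 3258 and 3493 reads in control and 5507 and 4043 in NRP-1 libraries (log2 fold change 0.44, standard error 0.18, edgeR adjusted p = 0.209). With 2 libraries per group an exact permutation test of a single gene cannot go below p = 0.33.

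The 21 cofactor genes include FOXA1 and the coactivators and chaperones that steroid receptors use. None passed the edgeR test (1.09% of all genes did), and 7 had an unadjusted p under 0.05 (22.9% of all genes did). Their median log2 fold change was 0.19 against 0.02 over all genes. DESeq2 called 4 of them, all higher (GATA3, NCOA1, CREBBP and EP300), where it called 6.67% of all genes. The most abundant of the list per length were the chaperones HSP90AB1, with 11761, 11330, 11706 and 16522 reads, and HSP90AA1, with 11463, 11728, 12779 and 19759 reads in the order control 1 and 2, NRP-1 2 and 3. Their log2 fold changes were 0.23 and 0.43 (edgeR adjusted p = 0.516 and 0.303). SPDEF, a transcription factor of secretory epithelium, had 3275 and 3555 reads in control and 3893 and 4260 in NRP-1 libraries (log2 fold change 0.20, edgeR adjusted p = 0.397).

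Of 33 androgen-responsive genes known mainly from prostate cells, 29 could be tested. None passed the edgeR test (1.09% of all genes did), 4 had an unadjusted p under 0.05 (22.9%), and DESeq2 (6.67% of all genes called) called STEAP1, a metalloreductase with 69 and 53 reads in control and 24 and 11 in NRP-1 libraries (log2 fold change -1.85, standard error 0.43, edgeR adjusted p = 0.0829). NDRG1, a stress and differentiation gene, was the most abundant per length and split the NRP-1 libraries around the controls, as TMPRSS2 did. It had 4548 and 4999 reads in control and 5849 and 1613 in NRP-1 replicates 2 and 3 (log2 fold change -0.41, edgeR adjusted p = 0.687). TPD52, a vesicle-trafficking gene, had 2463 and 2603 reads in control and 2769 and 2537 in NRP-1 libraries (log2 fold change 0.01, edgeR adjusted p = 0.978). PMEPA1, a membrane protein that limits TGF-beta signalling, had 2475 and 2420 reads against 2573 and 2510 (fold 0.997, edgeR adjusted p = 0.985). KLK2 and KLK3, the androgen-induced kallikreins of prostate, had no reads listed in any library. The median log2 fold change of the list was 0.01, beside 0.02 over all genes.

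The apocrine and mammary secretory list held 33 genes, of which 21 could be tested. By edgeR 1 rose and 2 fell (0.413% and 0.678% of all genes did), 16 had an unadjusted p under 0.05 (22.9% of all genes did), and the median log2 fold change was -0.36 against 0.02 over all genes. DESeq2 called 12 of them, 4 higher and 8 lower, beside 6.67% of all genes. This list, like the others, was chosen with earlier results of these data known. Nothing is therefore read from the shares or median of any list. LCN2, an iron-binding lipocalin of the same fold family as APOD, fell from 8096 and 5855 reads to 759 and 310 reads (log2 fold change -3.77, standard error 0.45, edgeR adjusted p = 0.0435, range 1.54e-06 to 0.109 over the alternatives with all 4 libraries). SCGB2A1, a small secretoglobin of breast secretions, fell from 484 and 403 to 167 and 210 reads (-1.29, standard error 0.19, edgeR adjusted p = 0.0477, range 7.18e-05 to 0.114). FGFR4, a growth factor receptor kinase highly expressed in apocrine tumours, rose from 230 and 331 to 767 and 994 reads (1.59, standard error 0.22, edgeR adjusted p = 0.0452, range 2.59e-07 to 0.114). In edgeR fits that left out either control replicate no gene of any list passed, although the log2 fold changes stayed at -3.50 and -3.99 for LCN2, -1.15 and -1.43 for SCGB2A1 and 1.36 and 1.87 for FGFR4. Without NRP-1 replicate 2 the value for LCN2 was -4.56. The DESeq2 calls were not repeated with a library left out.

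The most abundant genes of that list per length did not pass the test. SCGB2A2 (mammaglobin) had 37466 and 43293 reads in control and 28483 and 33906 in NRP-1 libraries (log2 fold change -0.43, edgeR adjusted p = 0.189). MUCL1, a small breast mucin, had 9324 and 9388 reads against 7327 and 7819 (-0.36, edgeR adjusted p = 0.160). SCGB1D2, a secretoglobin that pairs with mammaglobin, had 6460 and 6268 against 3878 and 3267 (-0.89, standard error 0.14, edgeR adjusted p = 0.0536, range 6.21e-05 to 0.114). Each of these was lower in both NRP-1 libraries, by much less than AZGP1 or SERPINA3 in fold.

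None of 10 tested genes of androgen metabolism (25 in the list) passed the edgeR test (1.09% of all genes did), 4 had an unadjusted p under 0.05 (22.9%), DESeq2 called 0 (6.67%), and the median log2 fold change was -0.40 against 0.02 over all genes. HSD17B4, a peroxisomal steroid dehydrogenase, had 981 and 942 reads in control and 801 and 748 in NRP-1 libraries (log2 fold change -0.37, edgeR adjusted p = 0.149). The androgen-activating reductases SRD5A1 and SRD5A3 had log2 fold changes of -0.30 and -0.43 (edgeR adjusted p = 0.258 and 0.147). Of the 5 other steroid receptors none passed edgeR or DESeq2 and 1 had an unadjusted p under 0.05, beside the same shares of all genes, 1.09%, 6.67% and 22.9%. ESR1 had 395, 437, 273 and 735 reads and PGR 702, 717, 419 and 1138 reads in the order control 1 and 2, NRP-1 2 and 3, so both groups overlapped, with NRP-1 replicate 3 the highest library. NR3C2, the mineralocorticoid receptor, had 87 and 76 reads in control and 49 and 28 in NRP-1 libraries (log2 fold change -1.14, edgeR adjusted p = 0.125).

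Relatives and locus partners of the 9 genes were a list of 36, of which 14 could be tested, and 4 of these fell and none rose by edgeR (0.678% and 0.413% of all genes did), with a median log2 fold change of -0.75 against 0.02 over all genes, and DESeq2 called 5 (6.67% of all genes). Of those 4, 3 belong to the SERPINA cluster in which SERPINA3 lies, whose products are secreted protease inhibitors and hormone carriers. SERPINA1 (alpha-1-antitrypsin) fell from 3854 and 3059 to 1298 and 1150 reads (log2 fold change -1.56, standard error 0.16, edgeR adjusted p = 0.0365, range 1.42e-11 to 0.106). SERPINA5, an inhibitor of kallikreins and protein C, fell from 275 and 268 to 38 and 75 reads (-2.32, standard error 0.32, edgeR adjusted p = 0.0452, range 6.37e-08 to 0.113). SERPINA6, the corticosteroid-binding globulin, fell from 72 and 57 to 2 and 6 reads (-4.03, standard error 0.50, edgeR adjusted p = 0.0440, range 8.66e-06 to 0.106), and its log2 fold change was -4.98 without NRP-1 replicate 3. The other genes of the cluster, from SERPINA10 to SERPINA3, never exceeded 10 reads, so no difference was detectable in them at this depth. Hepatocyte markers, cells in which SERPINA1, SERPINA3 and SERPINA6 are known to be abundant, were near 0 in all libraries, as given above.

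**Figure D3:**
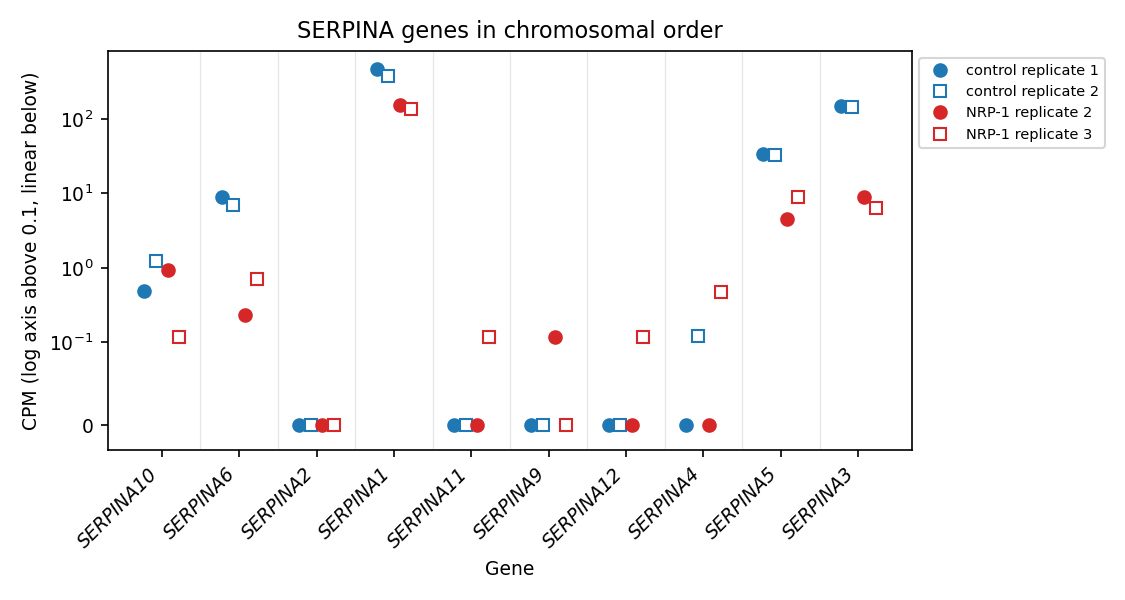
CPM of the SERPINA genes in the order they have along chromosome 14, on a log axis (linear below 0.1), with 1 point per library. SERPINA6, SERPINA1, SERPINA5 and SERPINA3 are lower in both NRP-1 libraries than in both control libraries, and the other genes are at or near 0.

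The fourth was TMPRSS3, a transmembrane serine protease near TMPRSS2 on chromosome 21, which fell from 639 and 529 to 226 and 274 reads (log2 fold change -1.28, standard error 0.18, edgeR adjusted p = 0.0449, range 1.78e-05 to 0.113), whereas TMPRSS2 itself overlapped between the groups. TMPRSS4 and ST14, other proteases of that family, had log2 fold changes of -0.37 and 0.27 (edgeR adjusted p = 0.350 and 0.283). KCNMA1, the calcium-activated relative of KCNU1, had 43 and 40 reads in control and 72 and 67 in NRP-1 libraries (0.68, edgeR adjusted p = 0.185), and CYP2B6 did not pass either (-0.86, edgeR adjusted p = 0.272). CLCA1 and CLCA4, relatives of CLCA2 in the same gene cluster, had at most 1 read per library, and ERG, the usual fusion partner of TMPRSS2 in prostate cancer, had none listed. Of the nearest tested genes on either side of the 9 genes, 2 per side, 36 in all, none rose and 2 fell by edgeR (0.678% of all genes fell), which were SERPINA1 and SERPINA5. The log2 fold changes of these neighbours ran from -2.32 to 0.96, with a median of -0.25. Beside CYP2B7P all were below 0, at -1.14 to -0.67, though none passed. Beside AZGP1 they ran from -1.80 to 0.96 and beside KCNU1 from -0.77 to 0.17, again with none passing. A link between neighbours and the 9 genes was not tested.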

How the data were processed

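RNA of 2 control BT-474 and 2 BT-474 NRP-1 libraries was analysed, grouped by their labels. The submitters' processing notes name bcl2fastq 2.16, Bowtie2 2.2.5, HISAT2 2.0.1 and RSEM, and both GRCh38 and hg19 with no role, so no coordinates beyond the GRCh38.p14 promoter windows are given. The authors deposited, per library, an expected count per gene, which is an estimate and need not be whole (32.4% to 32.9% of values were not). The authors also deposited FPKM values, normalised for length and mapped reads. Files list only genes with reads, and a gene not listed was taken as 0 reads. A further table of the authors' own comparison (group means, log2 ratios and a probability) was not used. Of 18882 gene IDs, 99.4% matched a RefSeq symbol.

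Expected counts were rounded and fitted with edgeR 4.0.16 (R 4.3.3; TMM factors 0.986 to 1.014, filterByExpr, glmQLFit, glmQLFTest, group as the only term), which left 14298 genes, with Benjamini-Hochberg adjustment and a threshold of 0.05. The standard error was the absolute log2 fold change divided by the square root of F. The alternatives were DESeq2 1.42.0, limma 3.58.1 after adding 1 or 0.1 to FPKM on the log2 scale (mean FPKM of at least 0.5), other filters and scalings, summed partner genes and the omission of each library. Within-group ratios have exact binomial 95% intervals (Python 3.11.15, scipy 1.17.1). Transcript identity used GENCODE transcripts. The fits were run on simulated data with known changes under 2 settings. The first let dispersion vary between genes, and false calls by edgeR and DESeq2 then exceeded the nominal rate, so calls near the threshold are to be read with that in mind. The second, added after that result was seen, used a smooth dispersion, and false calls stayed under it for those tools. Those of limma were slightly above it in both.

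The 9 genes and all lists were chosen with earlier results of these data known. In 2 of the lists 1 gene each is not reported here, and it was left out of the list's counts and median. Named besides the 9 are FOXA1, NRP1, each list's called genes and its 3 of highest mean FPKM, a few relatives listed by name, cell type markers, and the 5 genes nearest in pattern to AZGP1. GATA3, KLK2, KLK3, NCOA1, CREBBP, EP300 and STEAP1 were named after their values were seen.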

Additional observations from a re-analysis of the deposited data

How the results depend on the processing

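Precision was limited by 2 libraries per group. Over all genes, 156 were called, against 953 by DESeq2 (401 higher, 552 lower), 7 by limma on log2(FPKM + 1), 3 on log2(FPKM + 0.1), 0 with no filter on low counts and 0 at an adjusted p of at most 0.001 with a log2 fold change past 2 in size. With edgeR, 3268 genes had an unadjusted p under 0.05. Leaving out a library gave 0 to 5414 calls, with 0 without either control replicate, 5414 when NRP-1 replicate 2 was omitted and 4159 when NRP-1 replicate 3 was, the lone library then being assumed to vary like the other group. The lists moved with these totals. DESeq2 called 4 cofactor, 1 androgen-responsive and 12 apocrine genes. Both limma fits and the fit with no filter called 0 apocrine genes and 0 relatives. With a library left out, calls ran from 0 to 13 for cofactors, 0 to 13 for androgen-responsive genes, 0 to 18 for apocrine genes, 0 to 6 for androgen metabolism, 0 to 3 for other steroid receptors and 0 to 7 for relatives.

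Among the 9 genes, limma on log2(FPKM + 1) gave log2 fold changes of 1.91 for CLCA2, -2.01 for KCNU1 and -2.03 for CYP2B7P, and log2(FPKM + 0.1) gave -2.70 for KCNU1, since a pseudocount shrinks low values. PIP ran from -3.44 to -0.65 with each library left out. PGR was -0.03 and -0.05 by the limma fits, and PMEPA1, at about 0, was 0.02 by both and 0.03 without TMM. With each library left out, PGR ran from -0.82 to 0.61, ESR1 from -0.66 to 0.75, HSP90AB1 from -0.04 to 0.45, NDRG1 from -1.63 to 0.24, PMEPA1 from -0.03 to 0.02 and TPD52 from -0.07 to 0.07. The cause of the other changes was not tested. For the 38 tested genes named besides the 9 and the cell type markers, 228 values came from other settings of all 4 libraries. Of these, 182 held both their sign and their call, 34 lost and 7 gained the call, and 5 reversed. Most of these genes were not called in the main fit, and for them holding meant staying uncalled. The losses came from the limma fits and the fit with no filter, in which nearly all called genes lost the call. With a library left out, 8 of 152 values reversed in sign. No paired analysis was possible because the groups share only replicate number 2. A sum with partner genes was not run for TARP, whose partners have no row.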

Other observations

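Over the 4 libraries, the genes whose centred log2 CPM values lay nearest to those of AZGP1, among 10379 genes of mean CPM of at least 10, were LRG1 (Euclidean distance 0.194), MOCOS (0.25), CYP2B7P (0.272), COL16A1 (0.283) and DDIT3 (0.307). They were found by their likeness to AZGP1, so their reads are given with no test. LRG1, a secreted leucine-rich glycoprotein, had 200 and 150 reads in control and 46 and 46 in NRP-1 libraries. MOCOS, the molybdenum cofactor sulfurase, had 438 and 367 reads against 94 and 125. DDIT3, a transcription factor of the integrated stress response, had 2621 and 2693 against 623 and 555, and COL16A1, a fibril-associated collagen, 146 and 130 against 34 and 45. With 4 points, 1 difference between groups sets most of the likeness.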
